A study of Homo sapiens with 30 samples.

Results

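The genes described here are HLA class II chains and their partners: HLA-DRA, HLA-DPA1, HLA-DPB1, HLA-DMA, HLA-DMB, HLA-DOA, HLA-DOB, HLA-DQA1, CD74 and CIITA. They were chosen by name, as 10 listed genes, and every probe that the platform annotation gives to them was taken. Of the 10, 9 had a named probe, 12 probes in all, among 20625 features tested over all arrays, of which 13124 were named genes. HLA-DQA1 had no named probe and has no value here. All 9 passed the filter on dim probes in the fits of both lines.

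Class II molecules are pairs of an alpha and a beta chain that carry peptides from the endosome to the surface of B cells and other antigen-presenting cells, where CD4+ T cells read them. CD74, the invariant chain, holds the peptide groove closed until the pair reaches the endosome, HLA-DM exchanges the remnant of CD74 for a peptide, and HLA-DO, found mostly in B cells, restrains HLA-DM. CIITA is the coactivator that the RFX, CREB and NF-Y proteins recruit to the S, X and Y boxes in front of nearly all of these genes, and in lymphoma of B cells the loss of class II or of CIITA is a known route away from T cells.

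The study measured RNA on Illumina bead arrays from TMD8 and U2932, a pair of established cell lines of activated B cell-like diffuse large B cell lymphoma. Cells were treated with YK-S or YK-R, which are the 2 enantiomers of YK-4-279. That compound was designed against ETS-family transcription factors, and its S form is the active one. There were 10 groups of 3 arrays: TMD8 with YK-S or with YK-R, and U2932 with DMSO, the solvent, with YK-S or with YK-R, each at 4 h and at 8 h. TMD8 had no DMSO group, and no label gives a dose. Separate cultures are not stated for the 3 arrays of a group either, so p-values measure only the spread between these arrays, which may be technical.

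The mean signal per array was 419.6 to 494.1 in TMD8, with 46.6% to 56.1% of probes above background, and 85.4 to 340.9 in U2932, with 25.2% to 50.5%. A mean signal under 200 was found on 8 of the 18 U2932 arrays, among them all 3 of DMSO at 4 h and all 3 of YK-R at 4 h. The signal table and the series value table hold the same 30 arrays but disagree on the names of all 18 U2932 arrays, and only 5 of the 18 have the same group in both, while all 12 TMD8 names match. Differences between the lines therefore do not depend on the names when all arrays of a line are pooled. Every comparison that uses single groups of U2932 does depend on them. The 4 comparisons of lines by compound and time use the signal table's names and are given once more under the other names, and the treatment and time comparisons in U2932 are given under the names of the signal table first and under the names and values of the value table second. Of the B cell markers, MS4A1, CD79A, CD79B, CD22 and BLK were above background on all 30 arrays. CR2 was above it on 5 of 12 TMD8 and 15 of 18 U2932 arrays, and BANK1 on 12 and 15. The T cell genes CD3D, CD3E, CD3G, CD7 and TRAT1 and the myeloid genes S100A8, S100A9, CSF1R, FCN1 and ITGAM did not pass the filter in either line. Other listed markers of these cells did pass. In TMD8 and U2932, CD68 was above background on 12 and 18 arrays, CD14 on 12 and 16, and LYZ on 2 and 10. CD5 was above it on 12 and 0, CD2 on 11 and 4, and CD28 on 10 and 10.

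The genes lie in the class II region of chromosome 6 except for 2 of them (RefSeq coordinates, GRCh38.p14). In the region, HLA-DRA spans chr6:32439887-32445046, HLA-DQA1 chr6:32637406-32655272, HLA-DOB chr6:32812763-32817002, HLA-DMB chr6:32934636-32941028, HLA-DMA chr6:32948618-32953097, HLA-DOA chr6:33004182-33009591, HLA-DPA1 chr6:33064569-33080748 and HLA-DPB1 chr6:33075990-33089696. CD74 lies at chr5:150401639-150412910 and CIITA at chr16:10866206-10943021. The promoters below are those of the HLA-DM and HLA-DO genes, whose RNA separated the lines as normalized here, with letter matches to the boxes that CIITA acts through, beside HLA-DPA1 and CD74, whose RNA did not separate them in the same way. Each sequence is the stretch from 150 to 31 bases before the RefSeq start, read 5′ to 3′ on the gene's own strand. HLA-DPA1 has 2 RefSeq starts, and the one inside the gene's span is shown because the other, with its stretch at chr6:33080779-33080898, has no match to any of the 3 boxes. Capitals mark an X1 box (AGNNACNGA), an X2 box (TGATGATG) or a Y box (CCAAT, or ATTGG on the other strand), searched on both strands. X1 and X2 share bases in HLA-DMA and HLA-DMB. HLA-DOA has no X2 match and HLA-DOB no X1 match. The Y match of HLA-DMB, 22 bases before the start, and further X1 matches of that gene lie outside the stretch shown. HLA-DPB1, which did not separate the lines that way either and is not shown, has 2 Y matches and no X1 or X2 match.
HLA-DMA, chr6:32953128-32953247, minus strand: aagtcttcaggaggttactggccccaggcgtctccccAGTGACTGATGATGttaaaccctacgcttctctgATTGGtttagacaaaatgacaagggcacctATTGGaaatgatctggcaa
HLA-DMB, chr6:32941059-32941178, minus strand: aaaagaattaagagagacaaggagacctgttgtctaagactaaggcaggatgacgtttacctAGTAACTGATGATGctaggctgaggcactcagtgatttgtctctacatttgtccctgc
HLA-DOA, chr6:33009622-33009741, minus strand: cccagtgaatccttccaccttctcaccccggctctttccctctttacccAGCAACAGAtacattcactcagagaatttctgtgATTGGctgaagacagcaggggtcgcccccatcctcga
HLA-DOB, chr6:32817033-32817152, minus strand: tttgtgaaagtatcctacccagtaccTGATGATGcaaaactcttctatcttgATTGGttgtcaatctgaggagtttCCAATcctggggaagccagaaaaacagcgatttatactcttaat
HLA-DPA1, chr6:33073680-33073799, minus strand: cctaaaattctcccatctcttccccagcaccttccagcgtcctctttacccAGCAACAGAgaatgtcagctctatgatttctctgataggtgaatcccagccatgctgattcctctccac
CD74, chr5:150412941-150413060, minus strand: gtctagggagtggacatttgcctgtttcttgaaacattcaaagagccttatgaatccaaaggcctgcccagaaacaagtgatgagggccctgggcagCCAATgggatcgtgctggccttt

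Over the 300 bases from 250 before to 50 after each start, RefSeq held 9 promoters of 8 of the listed genes, HLA-DPA1 being counted with both starts. An X1 box was found in 5 of the 9 and in 15.3% of all 35116 promoters, an X2 box in 3 of the 9 and in 0.94% of all, and a Y box in 7 of the 9 and in 34.6% of all. X1 and Y together were found in 4 of the 9 and in 5.31% of all. A match here is a match of letters and not a measured binding site. RefSeq's promoter table had no entry for HLA-DRA or CIITA.

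In both lines HLA-DRA, the nearly invariant alpha chain of HLA-DR, was measured far above background on all 30 arrays. Its brightest probe had normalized log2 levels of 11.50 at the lowest, 11.78 at the median and 12.16 at the highest of the 12 TMD8 arrays, and of 10.90, 11.75 and 12.06 over the 18 U2932 arrays. The other HLA-DRA probe had 11.09, 11.43 and 11.94 in TMD8 and 10.28, 11.31 and 11.74 in U2932. As normalized here, the arrays of the lines overlapped on both probes, and the medians lay 0.03 and 0.12 log2 units apart. The group means ran from 11.85 ± 0.10 (SD, n = 3) for YK-S at 4 h in TMD8 to 11.48 ± 0.55 for DMSO at 4 h in U2932, and no neighbours in that order lay further apart than their spread.

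HLA-DPA1, the alpha chain of HLA-DP, was also above background on every array. Its levels were 9.32, 9.80 and 10.32 in TMD8 and 9.21, 10.29 and 10.73 in U2932, lowest, median and highest. The ranges overlapped over most of their length, and as normalized here U2932 had the higher median by 0.49 log2 units. HLA-DPB1, its beta chain, was near the background in U2932, where 10 of 18 arrays were above it, against 12 of 12 in TMD8. Its levels were 5.48, 5.77 and 6.14 in TMD8 and 4.22, 4.85 and 5.73 in U2932, so the brighter U2932 arrays reached into the range of TMD8. HLA-DPB1 is one of the most variable human genes, and its probe was not checked against the alleles of the lines.

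The HLA-DM chains separated the lines. HLA-DMA had log2 levels of 7.65 at the lowest, 8.49 at the median and 8.92 at the highest of the 12 TMD8 arrays, against 9.82, 10.40 and 10.98 over the 18 U2932 arrays. HLA-DMB had 8.57, 8.91 and 9.54 in TMD8 and 9.87, 10.40 and 10.82 in U2932. No U2932 array was as low as any TMD8 array for either chain, and the medians differed 3.75-fold for HLA-DMA and 2.81-fold for HLA-DMB.

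The HLA-DO chains did the same. HLA-DOA had 5.88, 6.14 and 6.32 in TMD8 and 6.95, 7.28 and 8.09 in U2932, lowest, median and highest, a 2.22-fold difference of medians. HLA-DOB had 5.27, 5.47 and 5.98 in TMD8 and 6.87, 7.55 and 8.40 in U2932, a 4.24-fold difference. For these 4 genes, which make up both peptide-editing pairs, every U2932 array was above every TMD8 array. Of all 20625 features, 5.26% separated the lines in that direction and 8.38% in the other, 13.6% in all, so a separation of the lines is common on these arrays, and 4 of the 9 genes measured here showed it.

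CD74 went the other way. On its brightest probe it had 11.24, 12.15 and 12.52 in TMD8 and 10.16, 10.77 and 11.76 in U2932, a median 2.60-fold higher in TMD8. The other 2 probes of CD74 were higher in TMD8 by 0.95 and 1.61 log2 units at the median, against 1.38 for the brightest. On all 3 probes the lines overlapped, on the 2 brighter ones through a single TMD8 array of YK-S at 8 h, which read 11.24 on the brightest. CIITA was dim in both lines, with 5.06, 5.55 and 6.14 in TMD8 and 4.61, 5.63 and 6.25 in U2932, where 14 of 18 arrays were above background. Its ranges overlapped and its medians lay 0.08 log2 units apart. Its single probe does not tell the gene's separate first exons apart here, since no annotation of transcripts was matched to it.

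**Figure D1:**
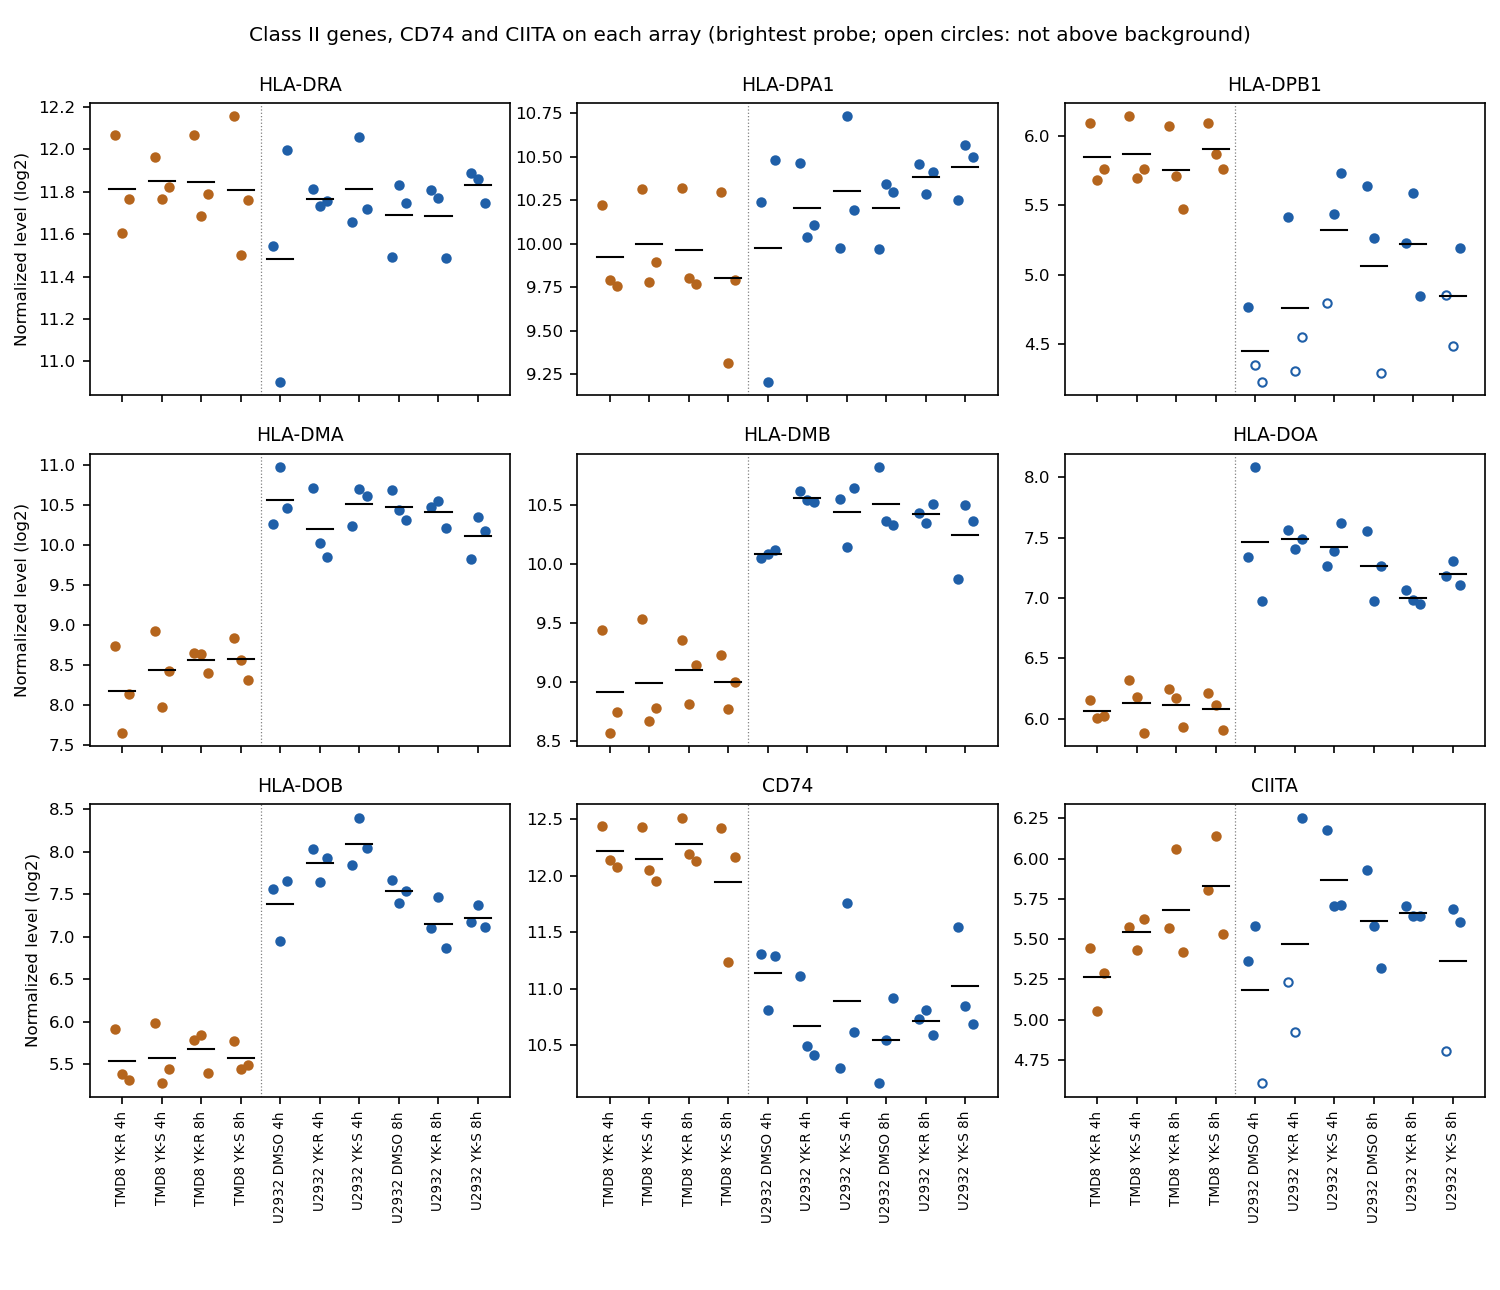
Normalized log2 level of the brightest probe of each of the 9 measured genes (vertical axis) on every array of the 10 groups (horizontal axis), with brown for TMD8, blue for U2932, black lines for group means of 3 arrays and open circles for arrays not above background; U2932 arrays carry the signal table's names. The HLA-DM and HLA-DO panels show U2932 above TMD8 with no overlap, HLA-DRA shows the lines level, and CD74 shows TMD8 higher with overlap. With each array only scaled to its median, the lines overlap for HLA-DM and HLA-DO. There the HLA-DRA probe shown has a median 1.05 log2 units higher in TMD8, where all features moved by 0.51.

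The group means followed the lines and not the treatments for HLA-DM and HLA-DO. HLA-DMA ran from 10.57 ± 0.37 (SD, n = 3) in DMSO at 4 h to 10.12 ± 0.27 in YK-S at 8 h within U2932, and then from 8.57 ± 0.26 in YK-S at 8 h to 8.17 ± 0.54 in YK-R at 4 h within TMD8. HLA-DMB ran from 10.56 ± 0.05 to 10.09 ± 0.03 in U2932 and from 9.11 ± 0.28 to 8.92 ± 0.46 in TMD8. HLA-DOA ran from 7.49 ± 0.08 to 7.00 ± 0.06 and from 6.13 ± 0.22 to 6.06 ± 0.08, and HLA-DOB from 8.10 ± 0.28 to 7.15 ± 0.30 and from 5.67 ± 0.24 to 5.53 ± 0.33. In each case the gap between the lowest U2932 group and the highest TMD8 group was larger than the SD of either. CD74 was highest in the 4 TMD8 groups, from 12.28 ± 0.21 to 11.94 ± 0.62, and the U2932 groups followed from 11.14 ± 0.28 to 10.54 ± 0.38. The CIITA means mixed the lines, from 5.86 ± 0.27 for YK-S at 4 h in U2932 to 5.18 ± 0.51 for DMSO at 4 h in U2932.

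The lines were compared under the same compound and time in 1 fit over all 30 arrays (limma, p-values adjusted over all 20625 features by Benjamini-Hochberg, called under 0.05), with the U2932 arrays under the signal table's names. All 4 HLA-DM and HLA-DO chains were lower in TMD8 in all 4 comparisons. With YK-S at 4 h, where 29.5% of all features were called in either direction, HLA-DMA differed by -2.08 log2 units (SE 0.27, limma adjusted p = 9.2e-07), HLA-DMB by -1.45 (SE 0.24, adjusted p = 2.5e-05), HLA-DOA by -1.30 (SE 0.20, adjusted p = 1.6e-05) and HLA-DOB by -2.53 (SE 0.22, adjusted p = 1.2e-09). In the same comparison CD74 was higher in TMD8 by 1.26 (SE 0.32, adjusted p = 0.0033), so 5 of the 9 genes passed.

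With YK-S at 8 h the background was 24.1% of features, and 6 of the 9 passed. HLA-DMA differed by -1.55, HLA-DMB by -1.24, HLA-DOA by -1.12 and HLA-DOB by -1.65, while HLA-DPB1 was higher in TMD8 by 1.07 (limma adjusted p = 0.012) with 1 of the 3 U2932 arrays above background, and CD74 by 0.92 (limma adjusted p = 0.036). That CD74 call was lost when any of 4 of the 6 arrays was left out (0.68 to 0.83) and when its probes were averaged (0.82). The HLA-DPB1 call at 8 h was lost without 1 TMD8 array (0.97, limma adjusted p = 0.056) or 1 U2932 array (0.89, limma adjusted p = 0.077).

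With YK-R at 4 h 34% of all features were called, with a median difference of 0.11 over all features, and 6 of the 9 passed, with HLA-DMA at -2.03, HLA-DMB at -1.64, HLA-DOA at -1.42, HLA-DOB at -2.34, HLA-DPB1 at 1.09 (limma adjusted p = 0.0077, with 1 of 3 U2932 arrays above background) and CD74 at 1.55 (limma adjusted p = 0.00039). The HLA-DPB1 call was lost without 1 U2932 array (0.86, limma adjusted p = 0.058). With YK-R at 8 h the background was 27.9%, and 5 of the 9 passed, with HLA-DMA at -1.86, HLA-DMB at -1.32, HLA-DOA at -0.88 (limma adjusted p = 0.0016), HLA-DOB at -1.48 and CD74 at 1.57 (limma adjusted p = 0.00043). HLA-DRA differed by -0.02 to 0.16 over the 4 comparisons, HLA-DPA1 by -0.64 to -0.28 and CIITA by -0.32 to 0.46, and none of these passed as normalized here. Under the alternatives HLA-DPA1 was called with YK-S at 8 h in 3 of 14 settings, with differences from -0.88 to 0.39. With YK-R at 4 h HLA-DRA reached 2.58, HLA-DPA1 2.43 and CIITA 0.91, and each was called in 1 setting. CIITA reached 1.21 with YK-S at 8 h, where it was called in 1 setting. The 95% intervals for HLA-DRA, not adjusted for the number of features, reached from -0.46 to 0.60, so differences within that range could have gone undetected.

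With the same signals but the U2932 arrays under the value table's names, HLA-DMA, HLA-DMB, HLA-DOA, HLA-DOB and CD74 were called in the same direction in all 4 comparisons, where 32.0%, 24.9%, 43.1% and 29.5% of all features were called with YK-S at 4 h, YK-S at 8 h, YK-R at 4 h and YK-R at 8 h. HLA-DMA differed by -2.47 to -1.64, HLA-DMB by -1.57 to -1.21, HLA-DOA by -1.57 to -0.97, HLA-DOB by -2.31 to -1.70 and CD74 by 0.88 to 1.79. HLA-DPB1 was called in all 4 under these names (0.92 to 1.12, limma adjusted p from 0.022 to 0.040) and in 2 under the signal table's, so its calls at YK-S 4 h and YK-R 8 h rest on the names. HLA-DRA, HLA-DPA1 and CIITA were not called, HLA-DRA reaching 0.46 with YK-R at 4 h (limma adjusted p = 0.056). These values come from RNA of whole cultures, in which fewer cells of a kind and less RNA per cell cannot be told apart.

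**Figure D2:**
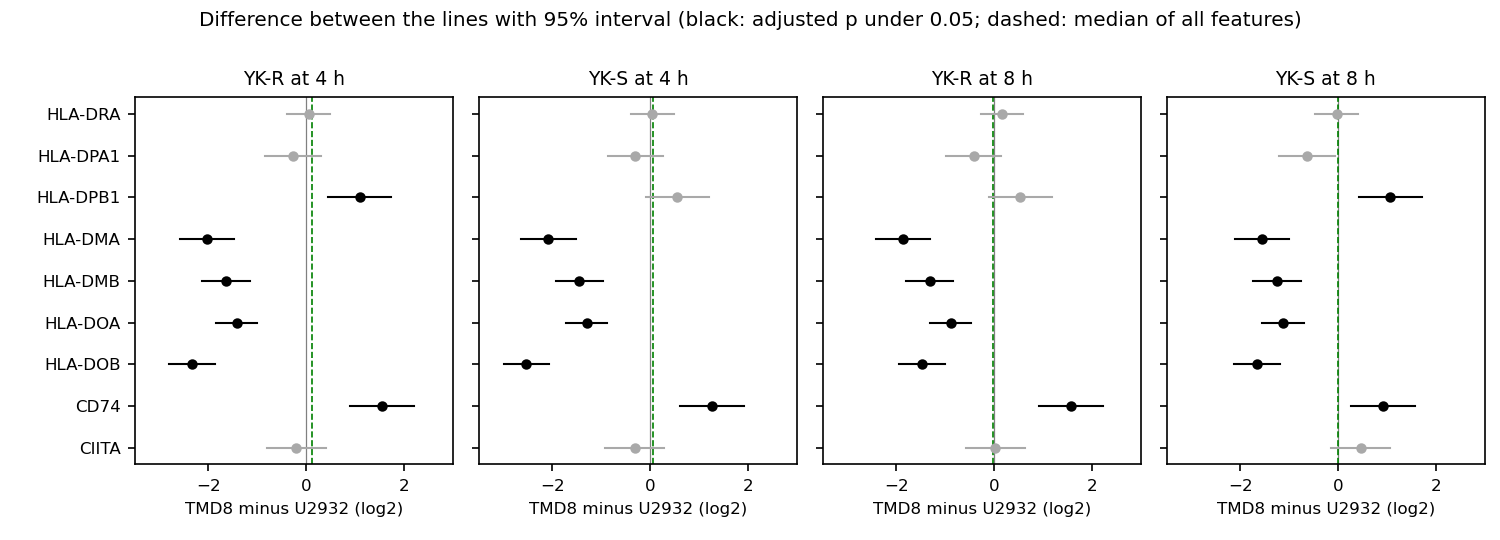
Difference between TMD8 and U2932 (log2, horizontal axis) for each of the 9 genes (vertical axis) in the 4 comparisons of equal compound and time, with 95% intervals from limma; black marks an adjusted p under 0.05 and the dashed line the median of all features. HLA-DM and HLA-DO lie between -2.53 and -0.88 in all 4 panels and CD74 between 0.92 and 1.57, while HLA-DRA lies between -0.02 and 0.16. With median scaling no HLA-DM chain and no HLA-DOA difference is called as lower, and at YK-R 4 h those of HLA-DMA, HLA-DMB and HLA-DOA turn positive. Over the alternatives HLA-DRA reached 2.58 at YK-R 4 h and was called there in 1 of 13 settings.

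The separation of HLA-DM and HLA-DO depended on how arrays of unequal brightness were brought to 1 scale. With each array only scaled to its own median, in place of quantile normalization, all features shifted by a median of 0.51 log2 units towards TMD8, and the lines overlapped for all 4 chains, with medians of -0.90 for HLA-DMA, -0.67 for HLA-DMB, -0.11 for HLA-DOA and -1.12 for HLA-DOB, or -1.41, -1.18, -0.62 and -1.63 relative to that shift. At YK-R 4 h, where all 3 U2932 arrays were among the dim ones and the shift of all features was 1.31, the differences of HLA-DMA, HLA-DMB and HLA-DOA turned to 0.69, 1.07 and 1.03, all below that shift. With the 8 dim arrays left out under median scaling, the lines again did not overlap for HLA-DMA, HLA-DMB and HLA-DOB and overlapped for HLA-DOA, where 31.2% of all 25382 probes did not overlap. CD74 and HLA-DPB1 separated the lines fully under median scaling of all arrays, TMD8 being higher on all 3 CD74 probes, but so did 27.6% of all probes, against 13.7% as normalized here. Under that scaling the 2 HLA-DRA probes had medians 1.01 and 1.05 higher in TMD8, with overlap. Relative to the shift of 0.51 they were 0.50 and 0.54 higher. HLA-DPA1 turned from -0.49 to 0.52 and CIITA from -0.08 to 0.61, both with overlap. Relative to the shift these were 0.01 and 0.10.

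A comparison within each array needs no scaling between arrays beyond its own. HLA-DMA less HLA-DRA was -3.95 to -2.94 log2 units on the TMD8 arrays and -2.06 to 0.08 on the U2932 arrays. Probes of different genes differ in brightness for reasons of their own, so only the difference of this gap between the lines is read. TMD8 less U2932, the medians of this gap differed by -2.03 for HLA-DMA, -1.45 for HLA-DMB, -1.27 for HLA-DOA and -2.13 for HLA-DOB. Measured against CD74 on the same array it differed by -3.29 for HLA-DMA, -2.84 for HLA-DMB, -2.55 for HLA-DOA and -3.30 for HLA-DOB. In all 8 combinations, and under all 6 ways of processing tried, no U2932 array overlapped any TMD8 array, U2932 having the more HLA-DM or HLA-DO RNA relative to HLA-DRA or CD74. The 6 ways are not separate tests. Those with dim arrays left out hold part of the arrays of another way, so their lack of overlap follows from it. Those with another background correction share the quantile normalization. Of all other probes, 4.11% to 10.7% separated the lines in that direction when HLA-DRA was subtracted, over the 6 ways, and 7.77% to 37.5% when CD74 was. CD74 itself was higher in TMD8, so that subtracting it moved the median of all probes by -1.39 log2 units as normalized here, and the direction against CD74 is in part set by CD74. Against HLA-DRA the median of all probes moved by -0.05 as normalized here. It moved by -0.51 with median scaling, and by -0.21 when the dim arrays were also left out. In these 2 ways the direction against HLA-DRA is in part set by HLA-DRA. In the deposited signals without any correction, HLA-DMA read 507.5 to 1167 in TMD8 and 1251 to 2383 on the 10 U2932 arrays with a mean signal of 200 or more, although these arrays were dimmer as a whole. The same arrays overlapped for the other 3 chains. HLA-DMB read 905.9 to 1620 in TMD8 and 1498 to 2402 in U2932, HLA-DOA 190.6 to 239.0 and 181.4 to 326.0, and HLA-DOB 143.7 to 201.0 and 174.6 to 471.6. On the 8 dim arrays the signals lay lower still, and HLA-DMA read 226.1 to 832.2.

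**Figure D3:**
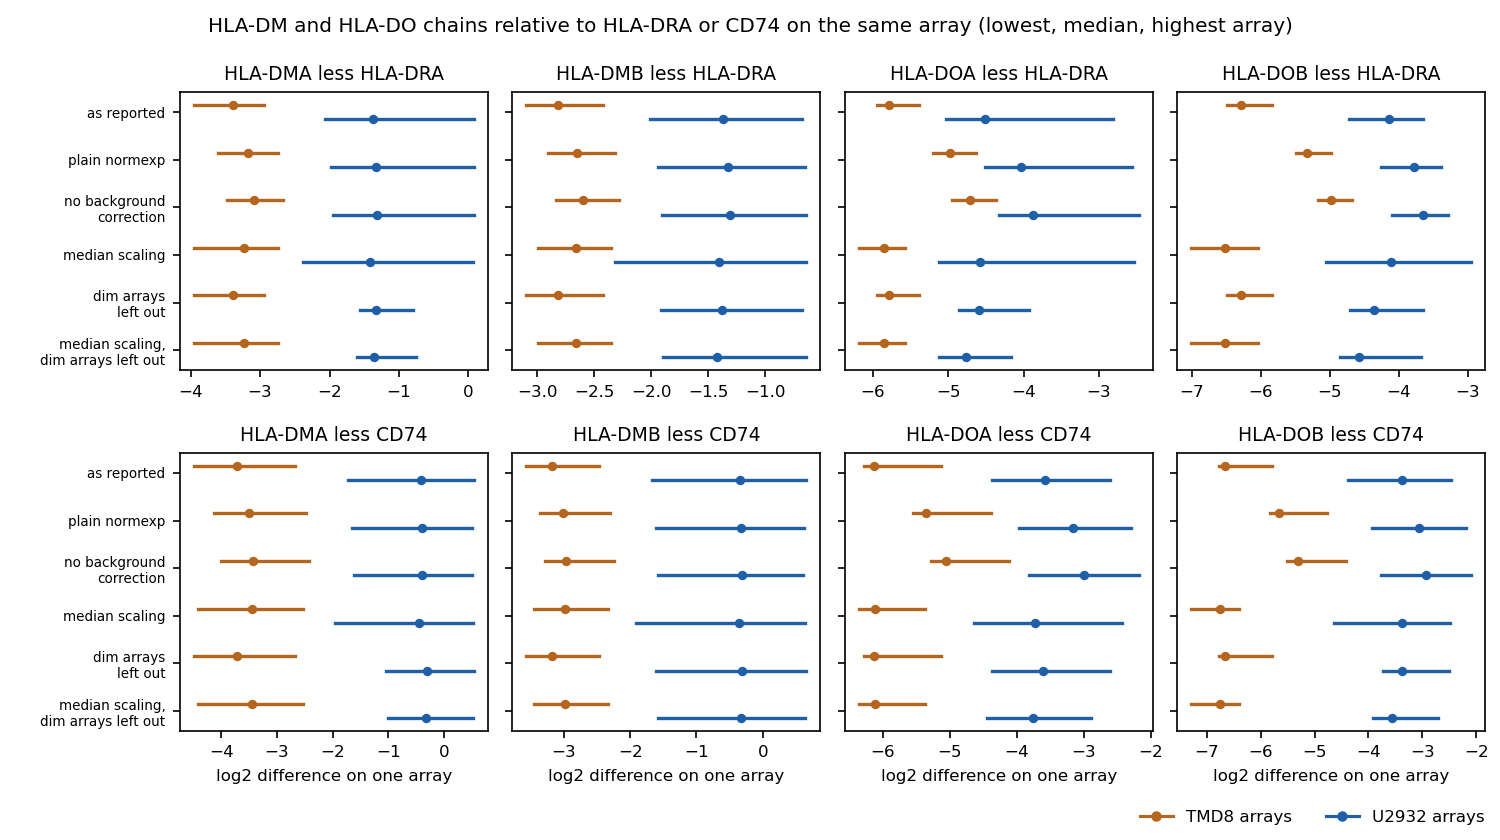
Level of each HLA-DM and HLA-DO chain less that of HLA-DRA or CD74 on the same array (log2, one axis) for TMD8 (brown) and U2932 (blue) under 6 ways of processing (the other axis), drawn as the lowest, median and highest array of each line. In all 8 panels and under all 6 ways the lines do not overlap and U2932 lies higher, in part through the reference itself for CD74, which was higher in TMD8. With median scaling that holds for HLA-DRA too. The ways with dim arrays left out hold part of the arrays of another way, so their lack of overlap follows from it.

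The chains outside the list fell into both patterns. In the counts that follow, the share of all features called in either direction was 29.5% with YK-S at 4 h, 24.1% with YK-S at 8 h, 34% with YK-R at 4 h and 27.9% with YK-R at 8 h, and a count near that share says nothing particular of a list. Of 9 further class II genes, 5 were measured, and in each of the 4 comparisons of lines 2 of the 5 were called lower in TMD8 and none higher. HLA-DRB4, a beta chain carried by some HLA-DR haplotypes, had a median 7.84-fold higher in U2932 with no overlap, and overlapped under median scaling (-2.05). HLA-DQB1, the beta chain of HLA-DQ, was not above background on any of the 12 TMD8 arrays and was above it on all 18 U2932 arrays, at least 3.63-fold higher there, with no overlap under median scaling either. It passed the filter only through U2932, so the direction of its calls was set by the filter. Its probe was not checked against the alleles of the lines. HLA-DRB1, HLA-DRB3 and HLA-DRB6 overlapped between the lines. The HLA-DRB genes are near-identical copies whose probes can take up each other's RNA, so their values are uncertain. HLA-DRB5, HLA-DQA2 and HLA-DPB2 did not pass the filter.

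Of the proteins that hold CIITA at the promoters, RFXAP and RFX5 were called lower in TMD8 in all 4 comparisons as normalized here, while under median scaling RFX5 lay higher there. Of 7 measured subunits of the RFX, CREB and NF-Y complexes, 3 were called lower and 1 higher with YK-S at 4 h, 3 lower and none higher with YK-R at 4 h, and 2 lower and none higher at 8 h with either compound. The counts at 8 h are near the 24.1% and 27.9% of all features, and the 4 of 7 and 3 of 7 at 4 h stand beside 29.5% and 34%. RFXAP was lower in TMD8 by 0.92 to 1.11 log2 units and RFX5 by 0.45 to 0.60 in all 4 comparisons, and RFXANK by 1.12 and 1.13 in both comparisons at 4 h. NFYA was higher in TMD8 by 1.13 in YK-S at 4 h. Under median scaling the difference of medians was -0.02 for RFXAP and turned to 0.42 for RFX5 and 0.33 for RFXANK, near or below the 0.51 by which all features moved. By group, RFXAP lay between 6.70 ± 0.05 and 6.86 ± 0.10 (SD, n = 3) in TMD8 and between 7.64 ± 0.20 and 8.00 ± 0.28 in U2932. RFX5 lay between 9.30 ± 0.26 and 9.38 ± 0.23 in TMD8 and between 9.69 ± 0.05 and 10.02 ± 0.16 in U2932, and RFXANK between 7.48 ± 0.02 and 7.72 ± 0.14 and between 8.11 ± 0.19 and 8.61 ± 0.21.

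The factors that act on the CIITA promoter in B cells moved in both directions between the lines. Of 12 measured, 5 were called higher and 2 lower in TMD8 in both comparisons at 4 h, 5 higher and 3 lower with YK-S at 8 h, and 7 higher and 2 lower with YK-R at 8 h. That is 7, 7, 8 and 9 of 12 beside 29.5%, 34%, 24.1% and 27.9% of all features. Both counts at 8 h include PAX5, called higher in TMD8 by 0.45 although its probe was above background on no U2932 array. PRDM1, also called Blimp-1, which silences CIITA as B cells become plasma cells, had group means of 9.59 ± 0.10 to 10.18 ± 0.42 in TMD8 and 6.28 ± 0.88 to 7.71 ± 0.24 in U2932, a 5.73-fold difference of medians with no overlap. ZBTB32, a partner of PRDM1 in that silencing, was 2.41-fold higher in TMD8. SPIB, an ETS-family factor of B cells, had group means of 10.90 ± 0.13 to 11.25 ± 0.19 in TMD8 and 7.70 ± 0.31 to 8.81 ± 0.95 in U2932, a 7.86-fold difference of medians. These 3 separated the lines with no overlap, under median scaling too (3.56, 2.53 and 3.79 log2 units).

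IRF8, a factor that acts with ETS-family proteins, was higher in U2932, with group means of 10.58 ± 0.21 to 10.92 ± 0.13 there and 8.40 ± 0.31 to 9.31 ± 0.11 in TMD8. POU2AF1, the B cell octamer coactivator, was 2.45-fold higher in U2932. Both separated the lines and overlapped under median scaling (-1.06 and -0.30). IRF4, a factor of plasma cells and of this type of lymphoma, lay between 9.49 ± 0.37 and 10.45 ± 0.32 in TMD8 and between 8.59 ± 0.50 and 9.41 ± 0.57 in U2932, and was called higher in TMD8 in both comparisons at 8 h. SPI1, the ETS-family factor PU.1, lay between 6.16 ± 0.23 and 6.40 ± 0.15 in TMD8 and between 5.47 ± 0.30 and 6.27 ± 0.40 in U2932 and was not called. PAX5 was above background on 8 of 12 TMD8 arrays and none of 18 in U2932, too near the background for a fold. Also called were POU2F2 and TCF3, higher in TMD8 in 3 of the 4 comparisons each, and ETS1, lower in TMD8 with YK-S at 8 h (0.44 under median scaling).

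The coactivators and silencers of class II were also called in both directions. Of 10 measured, 3 to 5 were called higher and 2 lower in TMD8 in each comparison, beside 24.1% to 34% of all features. CREBBP, EP300 and HDAC3 were higher in TMD8 in all 4 and KAT2B and HDAC1 lower, with differences of 0.77 to 0.86 for CREBBP, 1.52 to 1.72 for EP300, 0.66 to 1.13 for HDAC3, -0.81 to -0.50 for KAT2B and -1.60 to -1.08 for HDAC1. HDAC2 was higher in 3 and CARM1 in 2 of the 4. KAT2B turned to 0.25 under median scaling.

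Of 10 measured genes of peptide loading, proteolysis and traffic, 4 or 5 were called higher in TMD8 and at most 1 lower, beside the same 24.1% to 34%. MARCHF1, the ubiquitin ligase that removes class II from the surface, was at least 6.73-fold higher in TMD8, and CTSS, the protease that cuts CD74, at least 1.65-fold, with 2 of 18 U2932 arrays above background for each. Both are in the counts above but passed the filter only through TMD8, so the direction of their calls was set by the filter. SPPL2A, which cleaves the last membrane-bound remnant of CD74, was higher in TMD8 by 0.86 to 1.39, and IFI30, a thiol reductase of the endosome, by 1.35 to 1.42. MARCHF1, CTSS and SPPL2A separated the lines with no overlap, as they did under median scaling. CD82 was called higher in TMD8 with YK-S at 8 h, CTSD with YK-R at 4 h, and CTSB lower with YK-R at 8 h (0.50 under median scaling). The 7 measured B cell markers had 2 called lower and none higher in TMD8 in each comparison, near the share of all features, among them CD79B in 3 by 0.52 to 1.11, BLK and CD79A in 2 and MS4A1 in 1, but CD79B, CD79A and MS4A1 turned to 0.03, 0.25 and 0.57 under median scaling. Their summed linear level was 4334 to 6969 in TMD8 and 8004 to 13980 in U2932, and their part in the differences of class II genes was not tested. Of 3 measured myeloid markers, CD14 was lower in TMD8 in 3 comparisons and CD68 and LYZ in 1 (CD68 turned to 0.23 under median scaling), with summed levels of 355.0 to 494.4 in TMD8 and 360.4 to 968.5 in U2932. Of 3 measured T cell markers, CD5, which some B cell lymphomas carry, was above background on all TMD8 arrays and on no U2932 array, and CD28 was called higher in TMD8 in 1 comparison, with summed levels of 116.5 to 174.5 and of 59.7 to 127.5. CD5 passed the filter only through TMD8, and LYZ only through U2932.

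**Figure D4:**
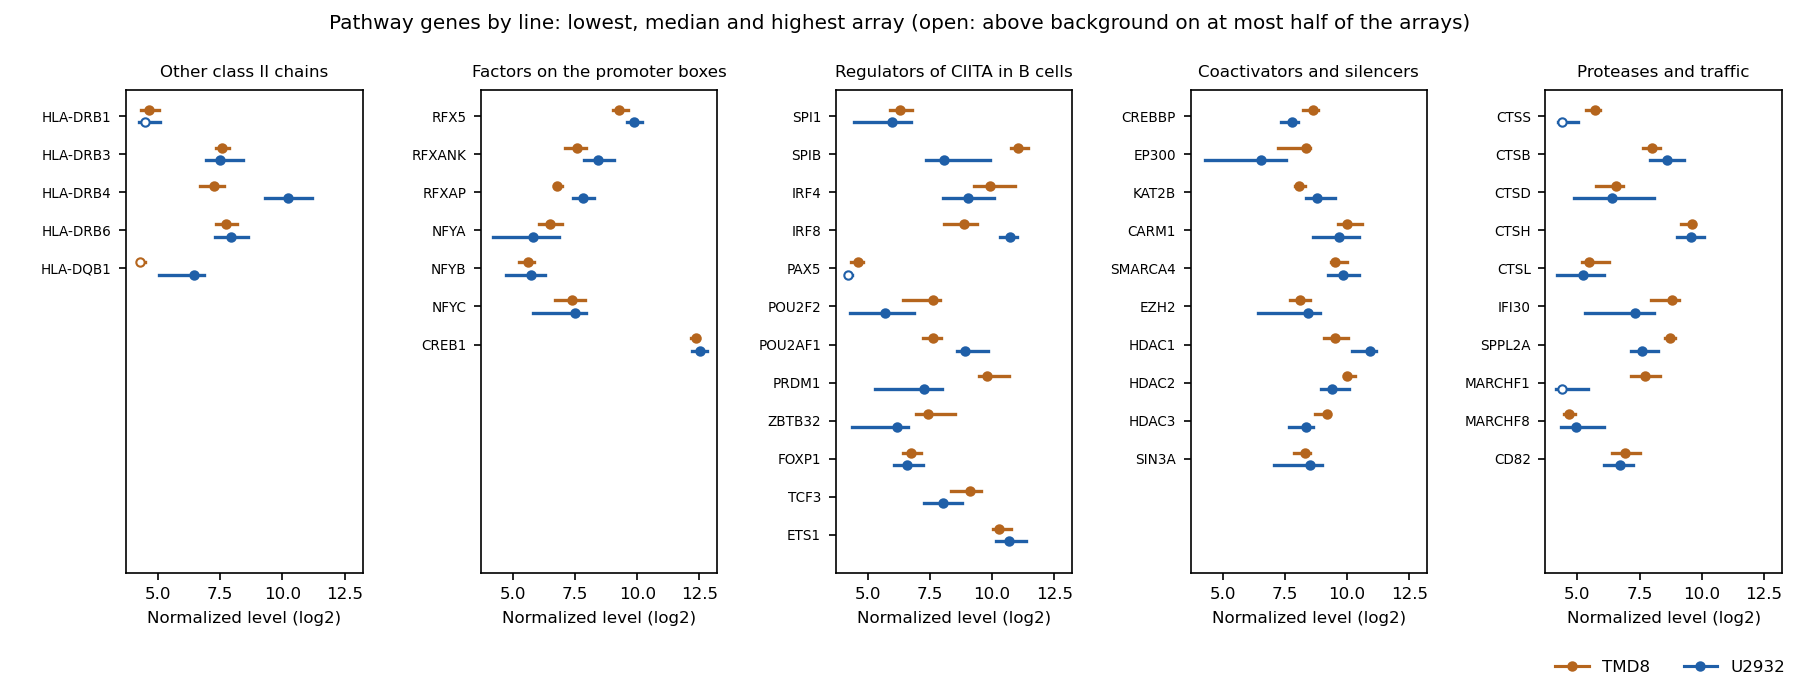
Normalized log2 level (horizontal axis) of the other class II chains and of the measured genes that regulate or serve class II (vertical axis), drawn as the lowest, median and highest array for TMD8 (brown, 12 arrays) and U2932 (blue, 18 arrays); open symbols mark genes not above background on most of a line's arrays. HLA-DRB4, HLA-DQB1, RFXAP, IRF8, POU2AF1, KAT2B and HDAC1 lie higher in U2932 with no overlap, and SPIB, PRDM1, ZBTB32, CREBBP, HDAC3, SPPL2A, MARCHF1 and CTSS in TMD8; under median scaling all of the first group but HLA-DQB1 overlap and KAT2B turns to the other side.

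Whether the active form of the compound changed class II RNA was asked first in TMD8, where YK-R is the only comparator. At 4 h, HLA-DRA read 11.96, 11.77 and 11.82 with YK-S and 12.07, 11.60 and 11.77 with YK-R. CD74 read 12.43, 12.06 and 11.96 with YK-S and 12.44, 12.14 and 12.08 with YK-R. CIITA read 5.57, 5.44 and 5.63 with YK-S and 5.45, 5.06 and 5.29 with YK-R. All 3 genes overlapped between the compounds. None of the 9 genes was called at 4 h, where 0.00519% of 19284 features were (1 feature, and 324 at an unadjusted p under 0.05), or at 8 h, where 0.0674% were. The differences of YK-S from YK-R ran from -0.07 for CD74 to 0.28 for CIITA at 4 h and from -0.34 for CD74 to 0.16 for HLA-DPB1 at 8 h, with limma intervals whose median half-width was 0.44. For CD74 at 8 h the interval ran from -0.86 to 0.19 and for CIITA at 4 h from -0.11 to 0.68. No gene of the 9 had an unadjusted p under 0.05 at either time. In YK-R between 4 h and 8 h, CIITA had a difference of 0.42 (95% interval 0.02 to 0.81, limma adjusted p = 0.50), the only one of the 9 with an unadjusted p under 0.05 in the TMD8 time comparisons, where 0.0519% of features were called for YK-S and 0.13% for YK-R, or 0.0467% and 0.14% with the value table's values. With 1 array left out at a time, up to 1.93% of features were called for YK-S against YK-R at 8 h and up to 2.13% for YK-R over time, and 0 of the 9 genes in any TMD8 comparison.

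The spread between TMD8 arrays was wider for these genes than for most. Their median residual SD was 0.29 log2 units, against 0.18 over all features, while in U2932 it was 0.30 against 0.40. The first-numbered array of each TMD8 group was the highest of the 3 for 8 of the 9 genes with YK-S at 4 h, 9 with YK-R at 4 h, 8 with YK-S at 8 h and 7 with YK-R at 8 h. The numbers follow the order of deposit and no label ties arrays of different groups, so no fit allowed for this, and its origin was not tested.

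In U2932, under the names of the signal table, none of the 9 genes was called in the 6 comparisons of YK-S, YK-R and DMSO. The share of all 17083 features called was 2.75% for YK-R against DMSO at 4 h and 0% in the other 5. Those shares at 4 h rested on single arrays. With 1 of the 6 arrays left out at a time, YK-R against DMSO gave 2 to 5724 called features and YK-S against DMSO 0 to 3493, the highest both times without the third DMSO array (31.2% and 19.0%). In that setting HLA-DOB was called for YK-S (0.84, limma adjusted p = 0.036) and no other of the 9 genes was. HLA-DOB had the smallest p-value of the 9. It read 7.57, 6.95 and 7.65 in DMSO at 4 h, 8.03, 7.65 and 7.93 with YK-R and 7.84, 8.40 and 8.05 with YK-S. YK-S lay above DMSO with no overlap, as 12.7% of features did in 1 direction or the other, by 0.71 (95% interval 0.21 to 1.20), with a limma adjusted p of 0.15, and YK-R by 0.48 with overlap (limma adjusted p = 0.20). HLA-DPB1 differed between YK-S and DMSO at 4 h by 0.88 (95% interval 0.10 to 1.65, limma adjusted p = 0.23), its probe being above background on 1 DMSO array and 2 YK-S arrays. At 8 h HLA-DOB read 7.67, 7.40 and 7.54 in DMSO, 7.10, 7.47 and 6.87 with YK-R and 7.17, 7.37 and 7.12 with YK-S, and YK-S lay below DMSO by 0.31. From 4 h to 8 h HLA-DOB had a difference of -0.88 with YK-S (limma adjusted p = 0.20) and of -0.72 with YK-R (limma adjusted p = 0.23), neither of which passed, in comparisons where 0% of features were called. Under the value table's names the difference of YK-S from DMSO at 4 h was -0.10 for HLA-DOB, so the sign itself rests on the names.

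Under the value table's names and values, 2 of the 9 genes passed in 1 of the 6 treatment comparisons, YK-R against DMSO at 4 h, in which 1.87% of features were called. CD74 read 11.51, 11.06 and 10.87 in DMSO and 9.95, 10.59 and 10.08 with YK-R, and HLA-DPA1 read 10.50, 10.03 and 10.24 in DMSO and 9.77, 9.06 and 9.77 with YK-R. The groups did not overlap for either gene, as for 16.1% of all features. CD74 differed by -0.94 (SE 0.21, limma adjusted p = 0.035) and HLA-DPA1 by -0.72 (SE 0.16, limma adjusted p = 0.036). Under the signal table's names the same comparison gave -0.47 for CD74 and 0.23 for HLA-DPA1, neither called. When each of the 6 arrays was left out in turn, 0 to 2 of the genes stayed called, 0 of them without the first DMSO array, and the adjusted p ran from 0.011 to 0.23 for CD74 and from 0.019 to 0.23 for HLA-DPA1 (limma). HLA-DRA differed by -0.46 (95% interval -0.81 to -0.11, limma adjusted p = 0.15). With YK-S at 4 h CD74 differed from DMSO by -0.87 (95% interval -1.31 to -0.43, limma adjusted p = 0.11), again with no overlap between the groups (20.4% of all features), and YK-S and YK-R differed by 0.08 (95% interval -0.36 to 0.52). At 8 h CD74 differed from DMSO by 0.45 with YK-S and 0.37 with YK-R, and neither was called. These comparisons share the DMSO arrays.

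Over time, HLA-DPA1 was called in U2932 under the value table's names, by 0.68 from 4 h to 8 h with YK-R (limma adjusted p = 0.021), where 5.91% of features were called, and by 0.18 under the signal table's names, where 0% were. No other gene of the 9 was called in a time comparison of U2932 under either table's names, where the share of features called was 0.00585% for DMSO and 0% for YK-S by the signal table's names and 1.23% and 4.09% by the value table's. With 1 array left out, the share for DMSO by the signal table's names reached 6.10%. The change of the treatment difference between 4 h and 8 h was tested as an interaction under each table's names. The difference of YK-S from YK-R between the lines was tested as an interaction under the signal table's names only. In all of the interactions tested, 0 of the 9 genes and 0% of all features passed. The CD74 interaction for YK-R against DMSO was 1.32 under the value table's names (limma adjusted p = 0.13) and 0.63 under the signal table's. Among the genes that regulate or serve class II, CTSD was lower with YK-R than with DMSO at 4 h by the signal table's names (-1.59, SE 0.39, limma adjusted p = 0.042), and IFI30 by the value table's (-0.77, SE 0.19, limma adjusted p = 0.049). In time comparisons under the value table's names, SPPL2A (-0.50) was called in DMSO, TCF3 (0.60) in YK-S, and HLA-DRB3 (-0.56), ETS1 (0.66), EZH2 (-0.46) and SIN3A (0.75) in YK-R.

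**Figure D5:**
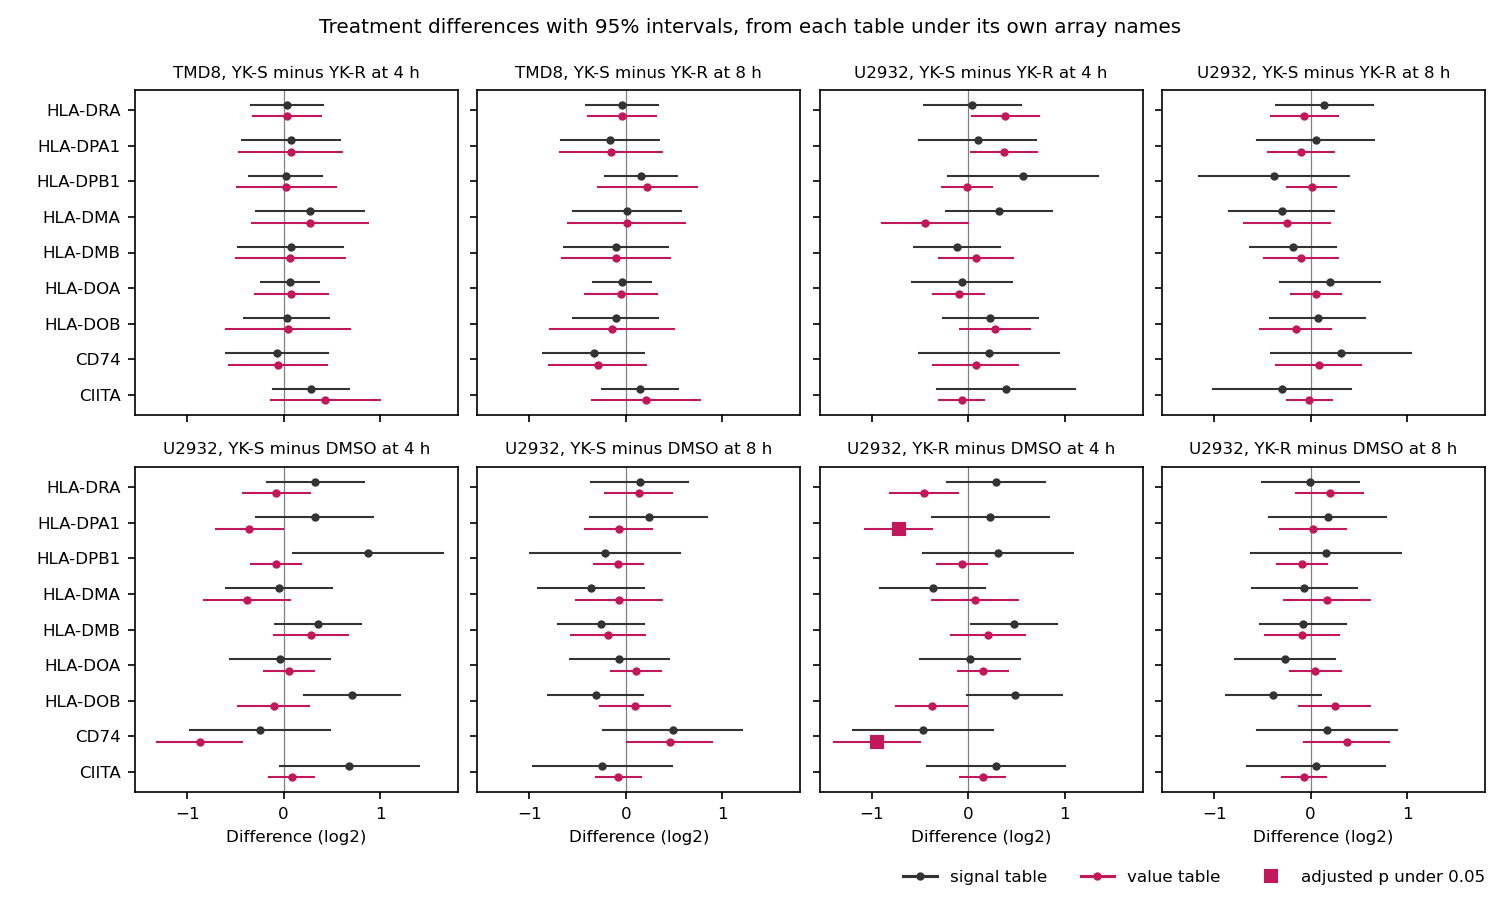
Treatment difference (log2, horizontal axis) of each of the 9 genes (vertical axis) in the 8 comparisons of compounds and DMSO, with 95% intervals from limma, from the signal table under its names and from the value table under its names. In TMD8 the tables give nearly the same values for most genes, but CIITA at 4 h lies at 0.28 by the signal table and 0.43 by the value table. In U2932 at 4 h they give different ones, with CD74 at -0.94 and HLA-DPA1 at -0.72 for YK-R against DMSO by the value table's names and at -0.47 and 0.23 by the signal table's.

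The mean of HLA-DRA, HLA-DPA1, HLA-DPB1 and CD74, the chains of the displayed complex and their chaperone, was followed over the 10 group means, from 9.97 for YK-S at 4 h in TMD8 to 9.26 for DMSO at 4 h in U2932. The genes most like it by Pearson correlation over the 10 groups were BTN3A2, TCIRG1, LTV1, SEC23IP and PLEKHG2, with r from 0.985 to 0.988. These points share their line, and the profile mostly separates TMD8 from U2932. With each line's mean taken off, the genes most like it were DDX11, TFE3, HYCC1, IGSF8 and RAB1B, with r from 0.922 to 0.960. The U2932 means carry the signal table's names, so this ranking rests on those names. The lowest U2932 means were 9.26 for DMSO at 4 h and 9.35 for YK-R at 4 h, whose 3 arrays were all dim. HLA-DMA, HLA-DMB, HLA-DOA and HLA-DOB had r from -0.95 to -0.89 with the first profile, and from -0.42 to 0.24 with each line's mean taken off. The mean did not stand for all of its own genes. With the first profile, r was 0.95 for HLA-DPB1, 0.91 for CD74, 0.73 for HLA-DRA and -0.55 for HLA-DPA1. With each line's mean taken off, r was 0.89 for HLA-DPA1, 0.77 for HLA-DRA, 0.72 for HLA-DPB1 and 0.10 for CD74.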

How the data were processed

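RNA was measured on 30 Illumina bead arrays, in 10 groups of 3, with GenomeStudio (version not given), per the submitters' processing notes. The deposited signal table holds linear intensity. The deposited value table is on a log2 scale by its range, each line sharing 1 distribution, with medians of 4.85 in TMD8 and 6.42 in U2932, and what the authors did to make it is not given in the sources used here. Each of its arrays matched 1 array of the signal table in rank (rank correlation at least 0.999957 in TMD8 and 0.999996 in U2932). Groups follow the labels, and the replicate numbers follow the order of deposit and pair nothing.

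The signals had their background removed with a normexp model set at each array's mode, since control probes for neqc were not used here. An offset of 16 was added, arrays were quantile normalized and log2 was taken. A detection p was computed here for each probe and array, from a normal distribution at the array's mode with the spread of the signals below it. A probe with a detection p under 0.05 on an array counts as above background there. Probes that reached this throughout at least 1 group were kept, and the brightest kept probe stood for a gene. Probes with 1 gene symbol numbered 30113, with several 8 and with none 17110, of 47231. limma 3.58.1 in R 4.3.3 was used, within TMD8 (19284 features), within U2932 (17083 features) and over both lines (20625 features), and its code was tested on simulated data. There were 8 treatment, 5 time and 4 line comparisons. All probes of the listed genes are named, and of 8 other lists the called genes. The genes and lists were chosen with earlier results of these data known. The alternatives were another background correction, median scaling, other filters, probe means, array weights, a fit over all arrays, the value table, dim arrays left out and each array left out. After the values were seen, the lines were also compared with the U2932 arrays under the value table's names. Promoters and coordinates are RefSeq's (GRCh38.p14). The number of arrays limits the precision.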

Additional observations from a re-analysis of the deposited data

How the results depend on the processing

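Of the called differences of single genes, 298 values under alternatives kept direction and call, 21 kept the direction and lost the call, and 3 reversed. The reversed values were all from median scaling with YK-R at 4 h, TMD8 against U2932: HLA-DMA 0.69, HLA-DMB 1.07 and HLA-DOA 1.03. Counts of the 9 genes called stayed within 1.5 times of the reported count in 365 values and left that range in 17. With median scaling the counts became 3 for the lines with YK-S at 4 h, 3 at 8 h and 2 with YK-R at 8 h, and in U2932 over time 5 with DMSO and 6 with YK-R, where all features moved by medians of 1.06 and 1.21 log2 units and 44.9% and 59.1% were called. Array weights gave 1 for YK-S against YK-R at 4 h in U2932 (HLA-DPB1, 1.04), 5 for YK-S and 2 for YK-R over time, where 11.2%, 38.9% and 19.0% of all features were called, and the fit of all 30 arrays 1 for YK-S over time (HLA-DOB, 1.76% of features). The value table's names and values gave 2 for YK-R against DMSO at 4 h and 1 for YK-R over time, and leaving out single arrays there gave 0 to 2. Without the third DMSO array at 4 h, YK-S against DMSO gave 1, where 19.0% of all features were called (7.62% without the first DMSO array, 0% without any of the other 4), and the range over arrays left out was 0 to 1. The value table's names with the signals gave 6 of the 9 in each of the 4 comparisons of lines. The cause of these changes was not tested. CD74 lost its call for the lines with YK-S at 8 h with no filter on dim probes (limma adjusted p = 0.066) and with probes averaged (limma adjusted p = 0.11).

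The neqc correction, quantile normalization within a line for differences between lines, and leaving out dim arrays where a group had no other were not run. No paired analysis was possible because the replicate numbers follow the order of deposit and no label ties arrays of different groups. Low signal over background limits what CIITA and HLA-DPB1 can show in U2932. The median half-width of the intervals was 0.44 log2 units in TMD8 and 0.55 in U2932, so smaller treatment effects could not be seen. Larger ones could be missed too, since the calls are adjusted for the number of features and these intervals are not. By the signal table's names, HLA-DPB1 differed by 0.88 between YK-S and DMSO at 4 h in U2932 and was not called.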
